A study of Mus musculus with 18 samples.

Results

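The carboxylesterase family was examined in the liver of mice with and without lysosomal acid lipase. It comprised 10 genes, Ces1b, Ces1c, Ces1d, Ces1e, Ces1f, Ces1g, Ces2a, Ces2e, Ces3a and Ces3b, taken by their symbols from the 35441 genes of the count table. They are not the whole family in the table, which lists 10 further carboxylesterase genes, described below. All 10 passed the filter on low counts (more than 100 reads summed over the mice) and belonged to the 14533 genes tested.

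RNA-seq was performed on the liver of 18 male mice, 3 in each of 6 groups. Wild-type (WT) mice and untreated Lipa-/- mice (labelled KO) were compared with Lipa-/- mice that had received rAAV8.hAAT.LIPA (labelled KOT), at the 3- and 8-month labels that the series text gives as 12 and 34 weeks post-injection. The Lipa-/- mice carried a constitutive exon deletion, made with a Cre driven by the CMV promoter and kept on the C57/BL6N background. rAAV8.hAAT.LIPA encodes HA-tagged human LIPA under the hepatocyte-specific hAAT promoter and was injected into the tail vein of adult mice. WT and untreated mice carried no vector, and the treated mice kept the Lipa deletion. Most untreated mice of the long arm had reached ethical endpoints earlier, so the 34-week label of that group need not be the age at sampling. The animal numbers name different mice at the 2 time points. The study code in the sample names differs between the time points, so time and code cannot be told apart, and untreated mouse 5 at 12-weeks was the single animal of its own code.

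Carboxylesterases are serine hydrolases of the endoplasmic reticulum that split ester, thioester and amide bonds. In the hepatocyte they activate or clear ester drugs and act on triacylglycerol and cholesteryl esters outside the lysosome, at neutral pH, whereas lysosomal acid lipase splits these lipids inside the acidic lysosome. Most members stay in the reticulum through a retention signal at their carboxyl end, written histidine, any residue, glutamate and leucine, while Ces1c is the carboxylesterase secreted into mouse plasma.

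The coding ends of the 10 members are shown because they sort the family into forms with and without this signal, a property that returns beside the expression values below. Each line gives the last 27 bases of the coding sequence of the canonical transcript (GENCODE vM39 on GRCm39), 5′ to 3′ on the coding strand, with the last 4 codons before the stop codon in capitals.
Ces1b: cctactgagcacAGAGAACACAAAtga
Ces1c: cctactgaacacACAGAACACAAAtga
Ces1d: tcccacagggaaCATGTTGAGCTCtga
Ces1e: ctgccgacagaaCACACTGAGCTGtga
Ces1f: ccccagccatacCACAATGAGCTGtga
Ces1g: tcccatagggaaCATGTTGAACTGtga
Ces2a: tctcaggacaagCATGCAGAGCTGtag
Ces2e: tctcaggagaggCACAAAGAGTTGtag
Ces3a: agcaggaaagttCCAGAGGAGCTCtga
Ces3b: agcaggaaagttCCAGAGGAGCTCtga
The codons of the retention signal were found in Ces1d, Ces1e, Ces1f, Ces1g, Ces2a and Ces2e. They were not found in Ces1b and Ces1c, whose capitals differed from each other in the first codon only, nor in Ces3a and Ces3b, whose 27 bases were identical.

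All 10 genes lie on chromosome 8 (GRCm39) in 2 tandem clusters. The 6 Ces1 members occupy 283.4 kb on the minus strand, chr8:93780578-94063953, and each has 13 or 14 exons. Ces2a, Ces2e, Ces3a and Ces3b occupy 359.9 kb on the plus strand, chr8:105460630-105820561, with 12 or 13 exons each. Within the coding sequence the closest pairs were Ces3a with Ces3b (95.28% identical bases), Ces1b with Ces1c (88.79%), Ces2a with Ces2e (83.15%) and Ces1d with Ces1g (81.57%). Such closeness touches the read assignment. Of the 31-base words in the canonical transcript, 42.3% of Ces3a were shared with Ces3b, 35.1% of Ces3b with Ces3a, 20.7% of Ces1c with Ces1b and 26.2% of Ces2a with the predicted gene Gm7208. In the other members 3.8% to 10.9% of these words occurred in any other gene of the table. Values of Ces3a and Ces3b, Ces1b and Ces1c, and Ces2a therefore rest in part on how Salmon divided shared reads.

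Depth was similar across the libraries, with 17527824 to 25833059 estimated reads per mouse, and 3 reads corresponded to 0.0946 to 0.291 CPM (reads scaled to library size with TMM factors) in the 18 mice. This level of 3 reads covers counting error only. Murine Lipa, in the same unit, was at 237 ± 32.8 (12-weeks) and 305 ± 20.1 (34-weeks) in WT mice (mean ± SD, n = 3), against 24.8 ± 8.33 and 19.0 ± 0.773 in untreated mice and 33.6 ± 3.11 and 30.2 ± 1.05 in treated mice. The human LIPA transgene was at 0 in every untreated mouse, at 907 to 2631 CPM in treated mice at 12-weeks and at 523 to 2746 CPM at 34-weeks, and at most at 0.906 CPM in a WT mouse. Other cells of the liver moved with the groups. Summed over 10 macrophage markers, expression was 111 to 248 CPM in WT and 2244 to 3467 CPM in untreated mice at 12-weeks, and 194 to 370 against 2506 to 3805 CPM at 34-weeks. Gene by gene, with calls as defined below, 7 of the 10 were called higher and 1 lower at 12-weeks. At 34-weeks 5 were called higher and 2 lower. Over all tested genes 20.2% and 20.5% were called higher, and 9.06% and 15.7% lower. The 7 stellate cell markers summed to 92.8 to 186 against 741 to 1195 CPM at 12-weeks and to 174 to 198 against 1290 to 2489 CPM at 34-weeks. Of these 7 genes, 5 were called higher and 1 lower at 12-weeks, and 6 higher and 1 lower at 34-weeks. Markers of cholangiocytes, the cells of the bile ducts, summed to 29.4 to 58.7 against 453 to 2233 CPM and to 40.6 to 53.0 against 1018 to 1793 CPM. Neutrophil markers summed to 0.681 to 2.11 against 121 to 1528 CPM and to at most 5.60 against 103 to 255 CPM. Summed endothelial markers were lower in untreated mice, at 113 to 158 against 65.4 to 73.7 CPM and 145 to 157 against 81.1 to 130 CPM. Gene by gene, 2 of the 6 were called lower and 1 higher at each time point, against the shares of all genes just given. Their median log2 fold change was -0.47 at 12-weeks and 0.16 at 34-weeks. In treated mice the summed macrophage markers stood above WT at 12-weeks, at 572 to 781 CPM, and at 258 to 533 CPM at 34-weeks, where the sums overlapped with WT. Of the 10 genes, 5 were called higher than in WT at 12-weeks and 2 at 34-weeks, and none lower. In these comparisons 25.5% and 0.22% of the tested genes were called in either direction. Stellate cell markers were also above WT at 12-weeks, at 322 to 896 CPM, and overlapped with WT at 34-weeks, at 197 to 237 CPM. Neutrophil markers of treated mice summed to 5.83 to 64.6 CPM and then 1.64 to 721 CPM. Cholangiocyte markers overlapped with WT at both times. Endothelial markers overlapped at 12-weeks and were below WT at 34-weeks, at 84.1 to 133 CPM. T cell markers summed to at most 17.49 CPM and B cell markers to at most 12.9 CPM in any mouse. At 12-weeks T cell markers were at 1.10 to 3.11 CPM in WT, 6.85 to 9.90 CPM in untreated and 7.44 to 17.49 CPM in treated mice. B cell markers were at 1.47 to 3.38, 2.70 to 3.85 and 5.54 to 12.9 CPM in the same order. The 10 hepatocyte markers overlapped between WT and untreated mice at 12-weeks (93510 to 118100 against 93340 to 109800 CPM) and at 34-weeks (88970 to 116700 against 58860 to 103500 CPM), and none was under 1 CPM in any group mean. These sums are carried by a few abundant genes. Gene by gene, 3 of the 10 were called lower and 1 higher in untreated mice at 12-weeks, and 5 were called lower at 34-weeks, with a median log2 fold change of -0.27 and -0.75. Of the tested genes 9.06% and 15.7% were called lower, and 20.2% were called higher at 12-weeks. In bulk liver, fewer hepatocytes and less RNA per hepatocyte cannot be told apart, and the part of these shifts in the values below was not tested.

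In WT liver the family spanned a wide range of levels, compared here in TPM, a relative transcript abundance that accounts for gene length. Ces1c, the plasma carboxylesterase, stood first with 1168 ± 95.3 TPM at 12-weeks and 1440 ± 76.3 TPM at 34-weeks, and ranked 95 and 87 among the 14533 tested genes. Ces3a, a liver esterase, came second with 1041 ± 22.4 and 840 ± 147 TPM, below every Ces1c value of its time point. Ces1d, also known as triacylglycerol hydrolase for its part in mobilizing stored lipid for lipoprotein assembly, followed with 300.4 ± 29.5 and 375 ± 50.8 TPM. At 12-weeks Ces1d, Ces3b and Ces1f overlapped with their neighbours in this order, as did Ces2a, Ces2e, Ces1e and Ces1g, which lay between 91.5 and 116 TPM on average. Ces1b was last at 24.2 ± 2.21 and 24.4 ± 4.99 TPM, below all other members in every WT mouse. No member was called between WT mice of 34- and 12-weeks, a comparison in which 0.323% of the tested genes were called. The largest difference was that of Ces3b, with a log2 fold change of -1.27 ± 0.40 (SE) and an adjusted p of 0.273, and its level was 235 ± 49.9 TPM in the younger and 110.1 ± 9.55 TPM in the older mice, without overlap. An unadjusted p under 0.05 was found for 1133 of the 14533 tested genes, a count that includes those expected by chance alone. DESeq2 also called no member.

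In untreated Lipa-/- mice the family was lower than in WT mice at both time points. At 12-weeks 8 of the 10 members were called lower, meaning a log2 fold change beyond 1 in size with an adjusted p under 0.05 in edgeR's quasi-likelihood test across all 14533 genes, of which 9.06% were called lower. At 34-weeks all 10 were called lower, against 15.7% of the tested genes. The median log2 fold change of the members was -2.36 at 12-weeks and -3.02 at 34-weeks, where the median over all tested genes was 0.02 and -0.03. The WT and untreated mice did not overlap in CPM for 10 members at 12-weeks and for 9 at 34-weeks. Of the tested genes 52.7% and 60.3% were without overlap in these comparisons.

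**Figure D1:**
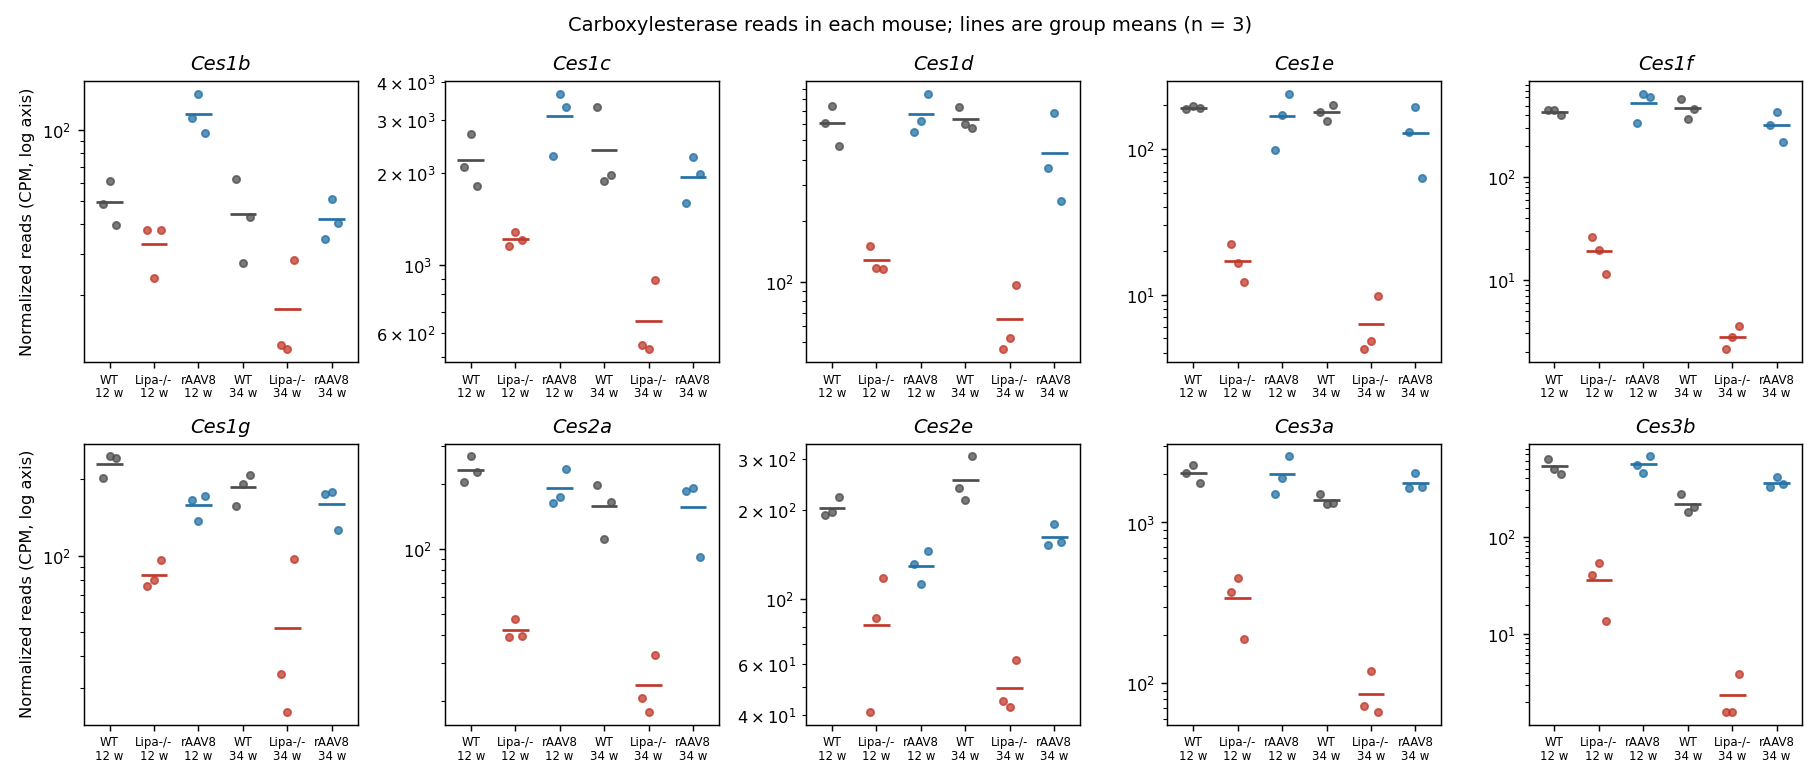
Normalized reads (CPM, logarithmic axis) of the 10 members in each mouse by group, with a line at the mean of 3 mice. The untreated Lipa-/- mice (red) sit below the WT mice (grey) for every member at 12-weeks, while the rAAV8-treated mice (blue) are without overlap with WT for 3 members at each time, among them Ces1b at 12-weeks, where they are higher.

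The deepest losses were those of Ces1f, a reticulum lipase of the hepatocyte. At 12-weeks it measured 450, 449 and 404 CPM in the 3 WT mice and 25.9, 19.4 and 11.5 CPM in the untreated mice. At 34-weeks it measured 583, 371 and 464 CPM in WT against 2.11, 2.74 and 3.53 CPM in untreated mice, which was 67, 71 and 96 reads. The groups stood far apart at both times. The log2 fold change was -4.52 ± 0.37 (SE; adjusted p = 1.85e-07) at 12-weeks and -7.40 ± 0.43 (adjusted p = 1.23e-08) at 34-weeks. Its rank among the tested genes in TPM went from 444 in WT mice to 10584 in untreated mice at 34-weeks.

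Ces3b behaved in a similar way. It measured 634, 500 and 443 CPM in WT against 40.5, 52.8 and 13.5 CPM in untreated mice at 12-weeks, and 272, 181 and 202 against 1.58, 1.58 and 3.82 CPM at 34-weeks. No untreated mouse reached a WT value. The log2 fold changes were -3.88 ± 0.44 (SE; adjusted p = 4.19e-06) and -6.55 ± 0.51 (adjusted p = 1.05e-07). The abundance-weighted length of its transcripts also differed at 34-weeks, 1257 to 1674 bases in untreated and 1908 to 2025 bases in WT mice, so the few remaining reads were assigned to a different mix of isoforms. Its near copy Ces3a, at higher levels, went from 2027, 2270 and 1770 CPM in WT to 372, 451 and 189 CPM in untreated mice at 12-weeks, and from 1509, 1295 and 1322 to 72.4, 120 and 66.4 CPM at 34-weeks. Its log2 fold changes were -2.58 ± 0.33 and -3.995 ± 0.35, so Ces3b was the more reduced of this pair at both times, in values that share part of their reads.

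Ces1e, known as egasyn for holding β-glucuronidase in the reticulum, measured 189, 198 and 193 CPM in WT against 22.4, 16.4 and 12.3 CPM in untreated mice at 12-weeks. At 34-weeks the values were 180, 157 and 202 against 4.23, 4.83 and 9.81 CPM. Its log2 fold changes were -3.50 ± 0.43 and -4.84 ± 0.46 with adjusted p-values of 8.15e-06 and 5.07e-07. Gusb, the gene of the partner β-glucuronidase, went the other way. It measured 19.3 ± 1.65 CPM in WT against 94.1 ± 25.6 CPM in untreated mice at 12-weeks, then 28.0 ± 6.70 against 118.5 ± 18.4 CPM, with log2 fold changes of 2.29 and 2.08 that were both called. β-glucuronidase is a lysosomal enzyme, and the summed macrophage markers given above were higher in the same untreated mice. Their part in the Gusb values was not tested.

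The other members with the codons of the retention signal fell by smaller amounts. Ces1d measured 609, 743 and 468 CPM in WT against 150, 117 and 116 CPM in untreated mice at 12-weeks, and 736, 606 and 579 against 46.4, 52.8 and 96.2 CPM at 34-weeks. Its log2 fold changes were -2.25 ± 0.36 and -3.30 ± 0.38, without overlap at either time. Ces2a, a reticulum hydrolase of triacylglycerol and diacylglycerol, changed by -2.46 ± 0.31 and -2.74 ± 0.31 with group means of 233 against 42.3 CPM and 158 against 23.7 CPM. Ces1g, linked to hepatic triacylglycerol secretion, changed by -1.46 ± 0.36 and -1.85 ± 0.37. In Ces1g the untreated mice of 34-weeks were spread widely, at 33.9, 24.1 and 96.6 CPM, against 158 to 208 CPM in WT. Ces2e changed by -1.32 ± 0.29 and -2.35 ± 0.30, and its untreated mice at 12-weeks also differed among themselves, at 41.1, 86.0 and 117 CPM. The adjusted p-values of these 4 genes were between 2.90e-06 and 0.0043. At 12-weeks the calls of Ces1g and Ces2e were lost with total counts in place of TMM factors (log2 fold changes of -0.98 and -0.86) and with TPM values (-0.98 and -0.97), since each then missed the threshold on size.

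Ces1b and Ces1c, the 2 Ces1 members without the codons of the retention signal, had the smallest differences at 12-weeks. At 34-weeks Ces1c (-1.86) was level with Ces1g (-1.85). Ces3a and Ces3b also lacked these codons but fell by more, by -2.58 and -3.88 at 12-weeks and by -3.995 and -6.55 at 34-weeks. Absence of the codons therefore did not go with a small difference in every member. A link between the codons and the size of the difference was not tested. Ces1c measured 2105, 2695 and 1822 CPM in WT against 1153, 1285 and 1207 CPM in untreated mice at 12-weeks. The groups did not overlap, but the log2 fold change of -0.86 ± 0.30 (SE; adjusted p = 0.0293) was below the threshold on size. At 34-weeks the values were 3302, 1882 and 1977 against 548, 529 and 891 CPM, a log2 fold change of -1.86 ± 0.30 (adjusted p = 9.81e-05). Ces1b measured 48.7, 61.1 and 39.7 CPM in WT against 37.8, 23.5 and 37.9 CPM in untreated mice at 12-weeks. This difference of -0.59 (95% interval -1.32 to 0.14; adjusted p = 0.192) was not called. At 34-weeks Ces1b stood at 62.3, 27.4 and 43.0 against 12.3, 11.8 and 28.1 CPM, a log2 fold change of -1.35 ± 0.35 (adjusted p = 0.00462), with the highest untreated mouse just above the lowest WT mouse. With total counts or TPM values this last call was also lost (-0.69 and -0.67).

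**Figure D2:**
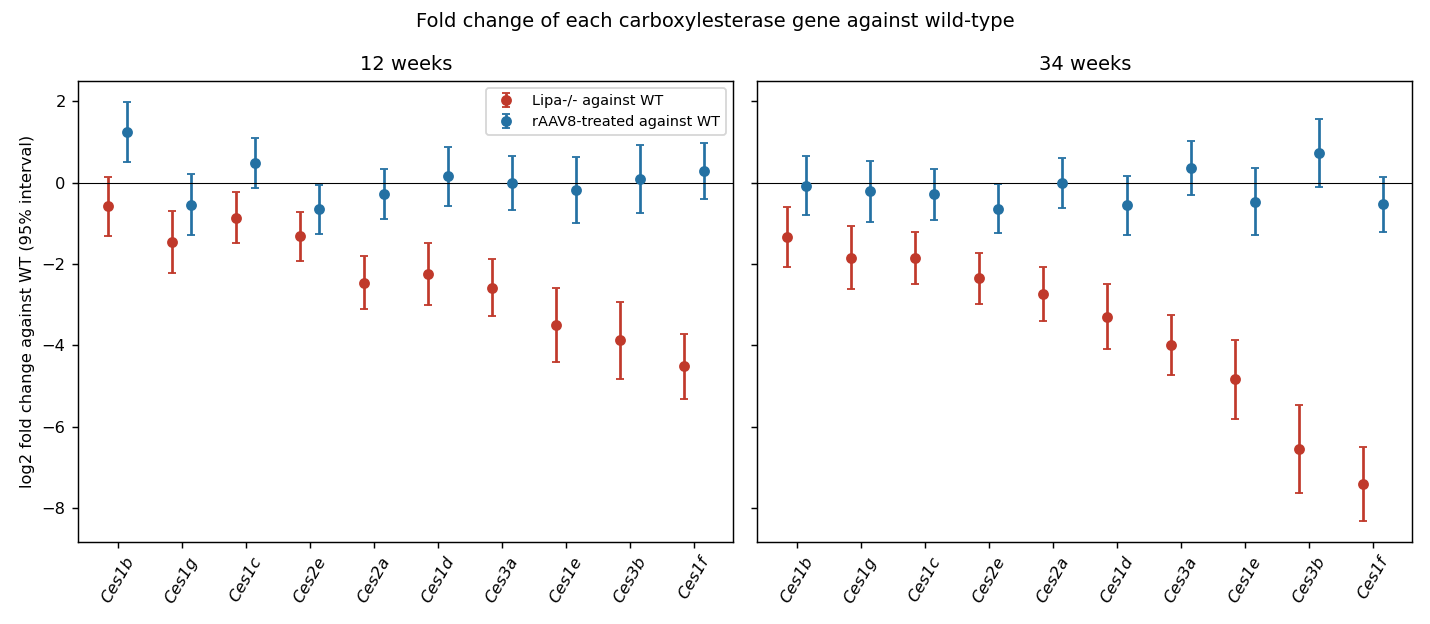
Log2 fold change against WT of each member at 12-weeks (left) and 34-weeks (right), with 95% intervals from the edgeR fit, in untreated (red) and rAAV8-treated (blue) Lipa-/- mice; genes are ordered by the untreated change at 34-weeks. The red points run from -1.35 (Ces1b) to -7.40 (Ces1f) at 34-weeks, and the blue points from -0.64 (Ces2e) to 0.72 (Ces3b); at 12-weeks the blue point of Ces1b is at 1.24.

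Because the members fell by unequal amounts, the make-up of the family changed within each liver. The share of one member in the summed TPM of the 10 genes is taken within a mouse and does not depend on the scaling between libraries. Ces1c made up 34.3 ± 2.62% of the family in WT mice and 63.0 ± 4.52% in untreated mice at 12-weeks, and 41.3 ± 5.23% against 70.6 ± 2.25% at 34-weeks. The lowest untreated mouse (59.5% at 12-weeks, 68.0% at 34-weeks) lay above the highest WT mouse (37.4% and 47.3%). Ces3a held 30.6 ± 0.775% in WT against 16.3 ± 5.37% in untreated mice at the first time point and 23.8 ± 2.78% against 9.36 ± 4.50% at the second. Ces1f held 6.79 ± 0.612% against 0.924 ± 0.342%, then 8.25 ± 0.599% against 0.298 ± 0.0583%. The shares of Ces1g, Ces2a and Ces2e at 34-weeks overlapped between WT and untreated mice.

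**Figure D3:**
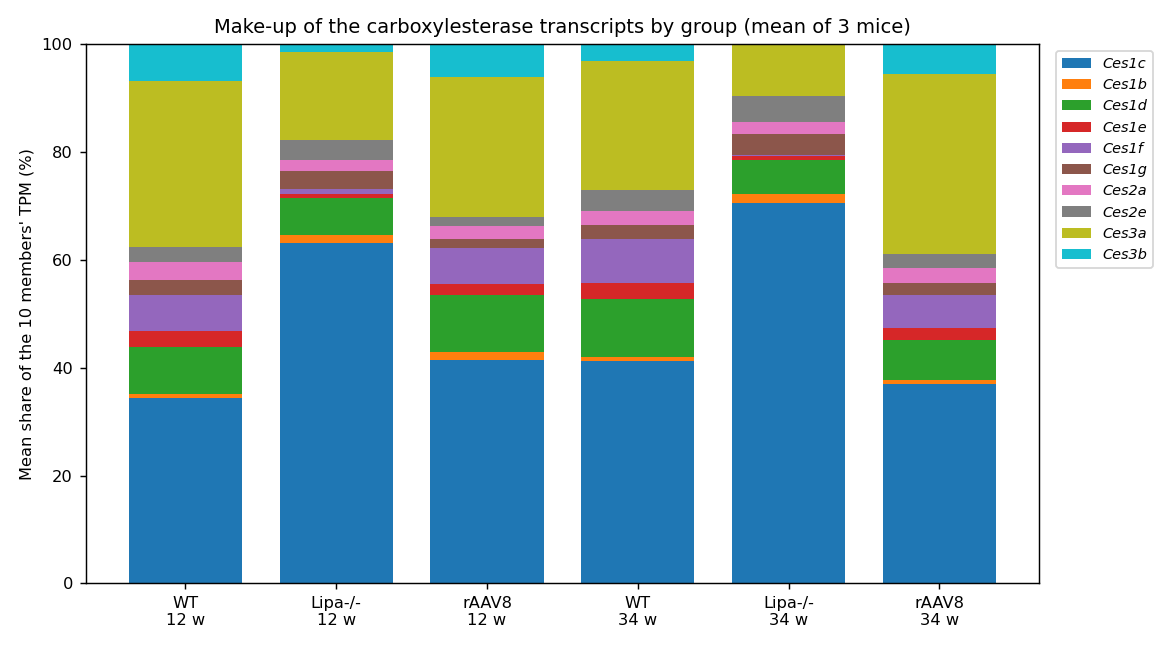
Mean share (%) of each member in the summed TPM of the 10 genes, by group (mean of 3 mice). Ces1c fills 63.0% and 70.6% of the bars of untreated Lipa-/- mice and 34.3% to 41.4% of the others.

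In summed TPM the 8 members other than Ces1b and Ces1c measured 2208 ± 80.4 in WT against 506 ± 78.4 in untreated mice at 12-weeks, and 2042 ± 320 against 252 ± 40.9 later, which left 22.9% and 12.3% of the WT mean. Ces1b and Ces1c together measured 1192 ± 97.4 against 923 ± 72.8 TPM, then 1464 ± 78.4 against 668 ± 179 TPM, which left 77.4% and 45.6%. In summed CPM the same quantities were 16.7% and 8.26% for the 8 members and 55.3% and 27.7% for the pair. The order of both sets was the same on either scale. By subfamily the Ces3 genes kept 20.02% and 8.62% of the WT mean in TPM, the Ces2 genes 39.1% and 28.2%, and the Ces1 genes, dominated by Ces1c, 57.0% and 33.2%.

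**Figure D4:**
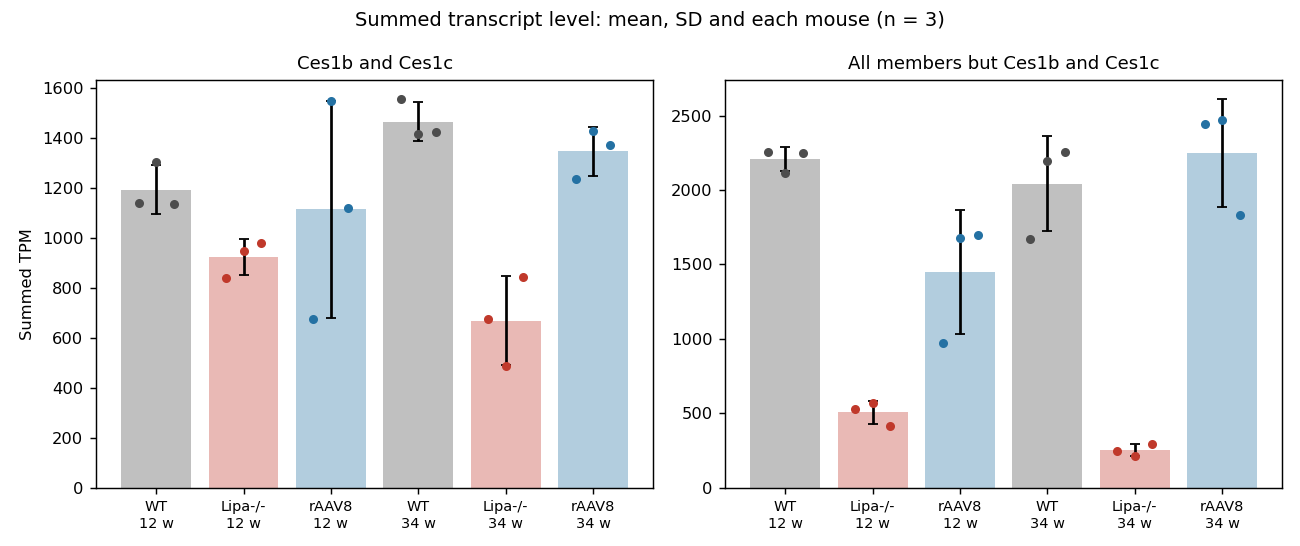
Summed TPM of Ces1b and Ces1c (left) and of the 8 other members (right) in each mouse (points), with the mean (bar, axis from 0) and SD over 3 mice. The 8 other members stand at 506 (12-weeks) and 252 (34-weeks) in untreated Lipa-/- mice, against 2208 and 2042 in WT.

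Treated Lipa-/- mice were then compared with untreated ones. No group received a vector without the transgene, so transgene, vector and injection cannot be told apart in this comparison. At 12-weeks 8 members were called higher in treated mice, against 16.2% of the tested genes, and at 34-weeks all 10 were, against 12.8%. The median log2 fold change of the members was 2.29 and 2.73, with -0.19 and 0.03 over all tested genes. With total counts or TPM values 6 members were called at 12-weeks and 9 at 34-weeks. The calls lost were those of Ces1b (0.97 and 0.69, in this order of settings) and Ces1c (0.49 and 0.18) at 12-weeks and of Ces1b (0.75 and 0.78) at 34-weeks. Ces1f measured 337, 650 and 601 CPM in treated mice at 12-weeks and 323, 432 and 223 CPM at 34-weeks, log2 fold changes of 4.805 ± 0.38 and 6.86 ± 0.42 over untreated mice. Ces3b measured 542, 455 and 665 CPM and then 322, 412 and 343 CPM, which gave 3.96 ± 0.45 and 7.27 ± 0.53. Both genes were far above every untreated mouse. The 2 members not called at 12-weeks were Ces1g, at 166, 137 and 172 CPM (0.92 ± 0.36, adjusted p = 0.0399), and Ces2e, at 131, 113 and 145 CPM (0.67 ± 0.28, adjusted p = 0.0570). Ces2e overlapped with the untreated mice of that time. The sign of both depended on the scaling. With TPM values they came to -0.21 and -0.34, and with total counts Ces2e came to -0.22. Under total counts the median over all genes itself moved from -0.19 to -1.05 in this comparison. These comparisons share the untreated mice with those against WT, so the values are given side by side and not as separate evidence.

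Between treated and WT mice few members were called. At 12-weeks the sole call was Ces1b, which measured 113, 143 and 97.7 CPM in treated against 48.7, 61.1 and 39.7 CPM in WT mice, a log2 fold change of 1.24 ± 0.35 (adjusted p = 0.0136). Every treated mouse was above every WT mouse. In this comparison 25.5% of the tested genes were called, and 3 members and 52.5% of the tested genes did not overlap. The call of Ces1b was lost without WT mouse 3 (1.10, adjusted p = 0.0686), with total counts (0.87) and with TPM values (0.56). With total counts Ces2e was called lower instead (-1.08), and with TPM values Ces1g (-1.19) and Ces2e (-1.31) were. The log2 fold changes of the other 9 members lay between -0.66 (Ces2e) and 0.48 (Ces1c), with a median over the 10 of 0.03. The scales differed here. The summed family of treated mice was at 113% of the WT mean in CPM and 75.4% in TPM, and the 8 members other than Ces1b and Ces1c were at 99.0% and 65.6%. At 34-weeks no member was called by edgeR, where 0.22% of the tested genes were. The values ran from -0.64 (Ces2e; 95% interval -1.24 to -0.04) to 0.72 (Ces3b; -0.12 to 1.56), with a median of -0.26. Unadjusted, Ces2e had a p of 0.0376 and all others were above 0.05. DESeq2 also called no member. Here 3 members and 8.89% of the tested genes did not overlap. The intervals were wide, for Ces1d -1.29 to 0.16, so that differences within them could not be seen with 3 mice per group. In TPM, Ces3a and Ces3b of treated mice at 34-weeks stood at 1193 ± 109 and 202 ± 9.55, above the 840 ± 147 and 110 ± 9.55 of WT mice, and the Ces1c share of the family was 37.0 ± 4.67%.

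Treated mice at 12-weeks were uneven. Ces1e measured 99.5, 171 and 240 CPM, and the summed family ran from 1646 to 3222 TPM in the 3 mice. Their TMM factors, 0.587 to 0.759, were the lowest of the series. The abundance-weighted length of Ces1d was 1234 to 1647 bases in them, against 1681 to 1703 bases in WT mice of that time, which enters TPM but not CPM. Between treated mice of 34- and 12-weeks, where 32% of the tested genes were called, the sole member called was Ces1b at -1.49 ± 0.35 (adjusted p = 0.00351), a call lost with total counts and, with TPM values, replaced by Ces1g and Ces2e (1.33) as higher. No member's difference from WT in treated mice was called to change between the time points, a test in which 18.4% of genes were called. DESeq2 called Ces1b there (-1.37, adjusted p = 0.0340).

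Untreated mice were lower at 34-weeks than at 12-weeks for 3 members, Ces1f (-2.76 ± 0.35, adjusted p = 0.00294), Ces3a (-1.97 ± 0.32, adjusted p = 0.0112) and Ces3b (-3.93 ± 0.45, adjusted p = 0.00212), where 0.461% of the tested genes were called lower. Fitted on the untreated mice alone, no gene was called in this comparison. Without untreated mouse 6 of 34-weeks, the highest of its group in CPM for every member but Ces3a, 6 members were called. The call of Ces3a was lost without untreated mouse 5 or 8 of 12-weeks or mouse 4 of 34-weeks. The other 7 members lay between -1.44 (Ces1e) and -0.70 (Ces1g) and were not called, except that DESeq2 called Ces1e (-1.41, adjusted p = 0.0174). The difference from WT itself changed between the time points for Ces1f, by -2.88 ± 0.47 (interaction term, adjusted p = 0.0360), in a test that called 0.0413% of the tested genes lower. Ces3b came next at -2.67 ± 0.58 (adjusted p = 0.0941). The call of Ces1f was lost without any one of the WT mice 1, 2 and 3 or untreated mice 5 and 8 of 12-weeks, or of WT mouse 3 or untreated mice 4 and 5 of 34-weeks (adjusted p = 0.0641 to 0.153). Both the time points and the study codes differ here, and they cannot be told apart.

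The other carboxylesterase genes of the table were Ces1a, Ces1h, Ces2b, Ces2c, Ces2d-ps, Ces2f, Ces2g, Ces2h, Ces4a and Ces5a. Of these 10, 5 passed the filter, and Ces5a had no read. Ces2c was called lower in untreated mice at both times, at 108.5 ± 11.3 CPM in WT against 17.2 ± 7.16 CPM, then 64.7 ± 17.8 against 11.4 ± 8.03 CPM, with log2 fold changes of -2.66 and -2.51. Ces4a was called lower as well, at 2.06 to 2.63 CPM in WT and 0.0404 to 0.0777 CPM in untreated mice at 12-weeks, the latter below the level of 3 reads. Ces2g was not called, at 38.9 ± 3.10 against 32.9 ± 9.30 CPM and 36.6 ± 12.3 against 25.7 ± 5.45 CPM (log2 fold changes of -0.24 and -0.51). Ces2b and Ces2h stayed under 3 CPM and were not called.

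Other enzymes of neutral lipid and ester hydrolysis moved in part with the family. Of 26 such genes, 9 were called lower and 1 higher in untreated mice at 12-weeks, and 15 lower and 1 higher at 34-weeks, with a median log2 fold change of -0.78 and -1.43. Over all tested genes 9.06% and 15.7% were called lower, and 20.2% and 20.5% higher. The largest called differences at 34-weeks were those of Cel, the bile salt-activated lipase, at 4.22 ± 1.19 (-0.79 and not called at 12-weeks), and of Lipc, the hepatic lipase, at -3.36 ± 0.32. In treated against WT mice 1 of the 26 was called higher and 3 lower at 12-weeks (25.5% of all genes in either direction), and edgeR called none at 34-weeks (0.22% of all genes). Of 22 transcription factors of the hepatocyte, 4 were called lower at 12-weeks and 8 at 34-weeks, and none higher. The largest of these at 34-weeks were Ppara, the fatty acid receptor of the hepatocyte, at -1.98 ± 0.35, and Nr1i3, the xenobiotic receptor CAR, at -1.93 ± 0.39. The protein-coding genes within 200 kb of the clusters were also counted. Of 14 tested outside the carboxylesterases, 5 were called higher and 1 lower in untreated mice at each time point, against the shares of all genes just given.

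The members resembled one another across the mice to different degrees. Over the 18 mice, Pearson's r of the log2 CPM was 0.99 for Ces1e with Ces1f and 0.98 for Ces3a with Ces3b, and it was lowest for Ces1b with Ces2e, at 0.51. Pairs with Ces1b ranged up to 0.89 (Ces1c). These mice share the 6 group means. After the group means were removed, r was 0.86 for Ces1e with Ces1f and 0.50 for Ces3a with Ces3b, and it was negative in 5 pairs, down to -0.44 for Ces1g with Ces3a and -0.41 for Ces2e with Ces3a. The genes outside the family most like the mean of the 10 members (each centred and scaled) were Pbld2, Ugt2a3, Cat, Gcdh, Mdh1, Afm, Timd2 and Aldh8a1, with r from 0.991 to 0.995, where the median over 14518 other genes was -0.06.

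Promoter sequences are shown for Ces1b and Ces1c, which had the smallest differences at 12-weeks. RefSeq promoters (table build GRCm38.p6, from 250 bases before to 50 after the start) matched 7 of the 10 members, with 2 entries for Ces1b, and each matched GRCm39 exactly once. Ces1d, Ces1f and Ces3a had no entry. The promoters below, all on the minus strand and written 5′ to 3′, were those of Ces1b at chr8:93806519-93806818, Ces1c at chr8:93857862-93858161 and, for comparison, Ces1e at chr8:93956198-93956497. Capitals mark the motifs CCAAT and TTGCNNAA on either strand.
Ces1b: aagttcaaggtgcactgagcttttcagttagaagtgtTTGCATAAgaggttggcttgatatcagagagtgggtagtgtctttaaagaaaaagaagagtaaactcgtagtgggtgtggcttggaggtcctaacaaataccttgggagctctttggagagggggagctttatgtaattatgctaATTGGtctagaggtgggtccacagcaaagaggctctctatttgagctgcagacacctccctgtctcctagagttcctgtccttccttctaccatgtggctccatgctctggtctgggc
Ces1c: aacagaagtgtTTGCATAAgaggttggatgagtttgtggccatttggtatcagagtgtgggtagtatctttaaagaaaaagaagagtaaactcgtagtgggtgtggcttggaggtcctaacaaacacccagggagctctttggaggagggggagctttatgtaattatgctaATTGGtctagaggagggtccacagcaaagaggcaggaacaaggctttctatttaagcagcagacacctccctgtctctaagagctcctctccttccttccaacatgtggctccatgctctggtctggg
Ces1e: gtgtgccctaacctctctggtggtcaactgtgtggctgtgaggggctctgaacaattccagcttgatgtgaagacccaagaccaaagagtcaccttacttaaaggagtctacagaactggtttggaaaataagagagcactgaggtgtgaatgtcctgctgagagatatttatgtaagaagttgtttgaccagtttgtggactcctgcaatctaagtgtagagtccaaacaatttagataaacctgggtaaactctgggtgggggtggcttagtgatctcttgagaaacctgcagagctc
The Ces1b promoter shown and that of Ces1c shared 80% of 315 aligned positions, while each shared 40.3% and 41.1% with Ces1e. With Ces1g, whose promoter is not shown, they shared more, 50.63% and 49.55%. With Ces3b of the other cluster they shared 40.32% and 40.99%. The second Ces1b entry, not shown, is a shifted window at chr8:93806596-93806895 that shares 223 bases with the first. It shared 49.2% of 388 positions with Ces1c, a value that includes this shift. Ces2a and Ces2e shared 52.6%. TTGCNNAA, a letter pattern of C/EBP factors, was found in 5 of the 8 member promoters (Ces1b, Ces1c, Ces2a and Ces2e) and in 10.8% of 32851 promoters of the same length. CCAAT was found in 6 of the 8 and in 37.4% of all. Both counts include the 2 overlapping Ces1b entries, whose matches are the same bases. TATAAA was found in Ces1g and Ces3b (13.6% of all) and AGGTCA, a nuclear receptor half-site, in Ces2a (16.3%). CAAAGTCCA and TTCNNNGAA were found in none of the 8, against 0.475% and 8.3% of all. These are letter matches on both strands and not sites of binding.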

How the data were processed

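Paired-end reads of mouse liver RNA were assigned by the authors with Salmon to the GRCm39 cDNA and summed to genes with tximport. The deposited estimated counts are not scaled for depth or length, and the deposited TPM values were computed by the authors within each mouse. The submitters' processing notes list R 4.3.0 and DESeq2 1.40.1. The authors' deposited table of fold changes and p-values was not used.

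Counts were rounded. Genes with more than 100 reads over the 18 mice were fitted in edgeR 4.0.16 (R 4.3.3) with TMM factors and 6 group means, and tested by quasi-likelihood with Benjamini-Hochberg adjustment over all genes. A gene was called where its adjusted p was under 0.05 and its log2 fold change above 1 in size. An exact permutation test of 3 against 3 mice cannot go below 0.1. The code was tested on simulated data. Labels name separate animals. All 10 members were described. Other genes were named by list and size of change, and the 8 most alike by correlation. Members and lists were chosen with earlier results of these data known. Alternatives were DESeq2 1.42.0, other scalings, filters and fits, limma 3.58.1 on log2(TPM + 1), and each mouse left out.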

Additional observations from a re-analysis of the deposited data

Results flagged for a closer look

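The difference between untreated Lipa-/- and WT mice was larger at 34-weeks than at 12-weeks for Ces1f, by -2.88 on the log2 scale (edgeR interaction term, adjusted p = 0.0360). It was put forward because the difference between the time points was itself tested. No other member was called in this test. The call of Ces1f was lost without certain single mice of either time point, and with length offsets. Time point and study code cannot be told apart in it, and the 34-week label of the untreated mice need not be their age at sampling. With 3 mice per group, no group was large enough to be searched for outlying mice.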

How the results depend on the processing

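Across the alternatives run, the 42 called single-gene values of the members kept their sign, while 28 of 68 values that were not called changed sign in at least 1. When single mice were left out, the number of members called stayed at 8 and 10 (untreated against WT at 12- and 34-weeks), at 8 to 9 and 10 (treated against untreated) and at 0 (treated against WT at 34-weeks, and WT over time). They ranged from 0 to 1 for treated against WT at 12-weeks (0 without WT mouse 3), from 1 to 2 for treated mice over time (2 without mouse 11 of 34-weeks), from 2 to 6 for untreated mice over time, from 0 to 2 for the untreated interaction and from 0 to 1 for the treated interaction (1 without WT mouse 2 of 34-weeks). With limma on TPM values 2 members were called in treated against WT mice at 12-weeks, 2 in treated mice over time and 1 in the treated interaction. Total counts gave 0 in treated mice over time. DESeq2 gave 4 for untreated mice over time, 2 in the untreated and 1 in the treated interaction, no filter gave 2 and length offsets 0 in the untreated interaction (Ces1f adjusted p = 0.0533), and fitting only the groups compared gave 0 for untreated mice over time. Treated against untreated mice at 12-weeks changed sign for Ces1g on TPM values (-0.21) and for Ces2e on TPM values (-0.34) and total counts (-0.22). The causes were not tested.

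The mouse numbers name different animals and were not taken as pairs. Deviations of same-numbered mice from their group means correlated at 0.08, -0.24 and 0.46 in WT mice. The values were 0.21 in untreated mice and -0.08 and -0.25 in treated mice. With 3 mice per group the deviations within a group depend on each other, so these values cannot decide on a pairing. With the mouse number as a replicate block, which left 3 residual degrees of freedom, 0 members were called in untreated, treated and WT mice over time.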
